A study of Mus musculus with 9 samples.

Results

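Nuclear pore and nucleocytoplasmic transport genes were taken from the deposited expression table as the rows whose pathway annotation holds the entry Nucleocytoplasmic transport and does not hold Spliceosome, with Sec13 left out. The entry named 108 genes, of which 15 were shared with Spliceosome and 1 was Sec13, so that 92 members remained of 21899 genes. They were measured by RNA-seq in 9 libraries of Neuro-2a (N2a) cells, an established mouse neuroblastoma line. In 3 libraries the cells carried shlucif, a control hairpin against luciferase, in 3 they carried shArf1-1 and in 3 shArf1-2, which are different hairpins against Arf1, a small GTPase of vesicle transport at the Golgi. All hairpins were delivered by lentivirus from the pLKO.1 puromycin vector, so that the control cells were transduced as well, and no mouse strain, animal age or drug treatment is part of the design. The libraries with either Arf1 hairpin are called Arf1-deficient, and nothing in the sources used here says whether the libraries of a group came from separate cultures, so the p-values measure the spread between these libraries, which may be technical.

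The nuclear pore complex is the only large gate in the nuclear envelope. Membrane nucleoporins anchor it, an outer ring of Y-shaped complexes and an inner ring build its scaffold, and nucleoporins with phenylalanine and glycine repeats fill its channel, while filaments reach into the cytoplasm and a basket into the nucleus. Importins and exportins carry proteins and RNAs through it, and the GTPase Ran sets the direction. In the nucleus its GTP-bound form releases import cargo and joins exportins with their cargo for export. Messenger RNA leaves mostly without Ran, through the NXF and NXT proteins and the export factors that splicing deposits.

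The hairpin targets are shown because every comparison rests on them. They were taken from the forward oligonucleotides that the study lists, and both matched coding sequence of Arf1, a minus-strand gene of GRCm38 chromosome 11, shArf1-1 in exon 3 at chr11:59213222-59213242 and shArf1-2 in exon 2 at chr11:59213386-59213406.
shArf1-1: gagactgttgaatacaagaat
shArf1-2: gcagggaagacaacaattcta
None of the 92 members had either 21-base target in a GENCODE transcript. The longest run that a member shared with a target was 12 bases, in Rnps1 for shArf1-1 and in Aaas for shArf1-2. Arf1 itself was between 316 and 328 FPKM (counts per gene length and per library total) with shlucif, between 127 and 130 FPKM with shArf1-1 and between 157 and 171 FPKM with shArf1-2, so that the targeted gene was lower in all 6 Arf1-deficient libraries.

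The libraries held between 11182479 and 15594615 counts. One difference between the groups lay outside the members and bears on every comparison with shlucif. A list of 20 macrophage and microglia genes summed to between 1165 and 1346 FPKM in each shlucif library and to between 1.01 and 1.46 FPKM in each Arf1-deficient library. All 17 of its tested genes were lower in Arf1-deficient cells, where 32.9% of all tested genes were. Of the 20, 14 never exceeded 3 counts in the 6 Arf1-deficient libraries, C1qa and Cx3cr1 had 3 or fewer in the shlucif libraries too, and Spp1 alone lay between 875 and 996 FPKM with shlucif. A list of 15 neuroblastoma genes summed to between 690 and 728 FPKM with shlucif, to between 1100 and 1255 FPKM with shArf1-1 and to between 1122 and 1213 FPKM with shArf1-2. Of its 12 tested genes, 11 were higher (31.6% of all tested genes) and none lower (32.9%), with a median log2 fold change of 0.63. Phox2a, a defining factor of sympathetic neurons, was detected in every library, while the neurofilament genes Nefl and Nefm stayed at 3 counts or fewer. A list of 12 proliferation genes summed to between 735 and 760, between 890 and 901 and between 753 and 770 FPKM in the same order of groups. Compared with shlucif, 6 of the 12 were higher (33.1% of all tested genes) and none lower (34.4%) with shArf1-1. With shArf1-2, 3 were higher (30.9%) and 6 lower (32.6%). No shlucif library was without the macrophage genes, so their part in the members' changes was not tested, and in bulk RNA fewer cells of a type and less RNA per cell cannot be told apart.

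**Figure D1:**
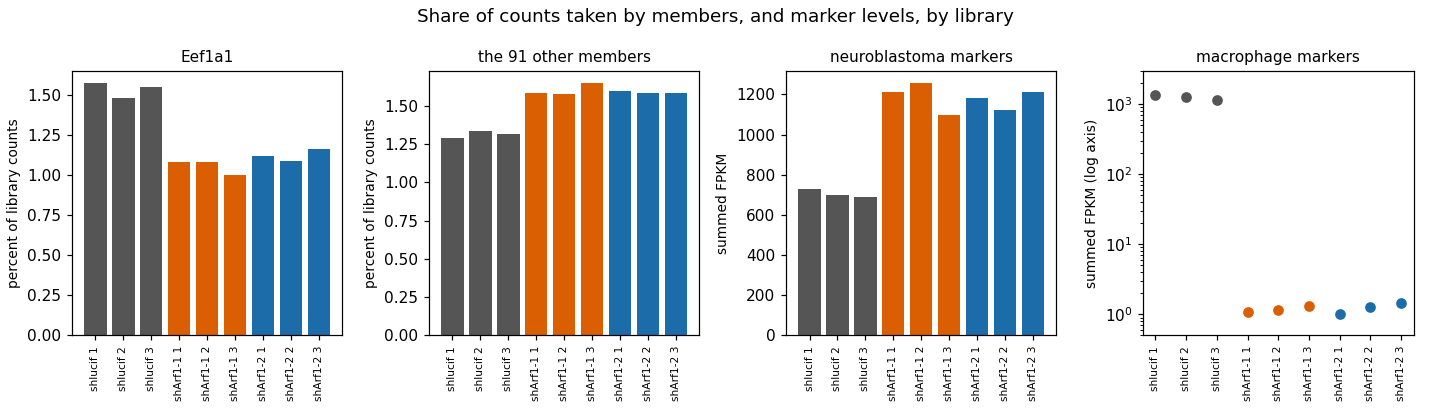
Each bar or point is 1 library, coloured by hairpin. The left panels give the percent of a library's counts that fell on Eef1a1 and on the 91 other members, and the right panels the summed FPKM of the neuroblastoma and the macrophage and microglia lists (the last on a log axis). Eef1a1 took less, and the other members more, in all 6 Arf1-deficient libraries, and the macrophage sum dropped from 1165 FPKM or more to 1.46 FPKM or less.

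The members as a group took slightly less of the Arf1-deficient libraries, and Eef1a1 accounted for it. Eef1a1, which encodes the translation elongation factor that delivers aminoacyl-tRNA to the ribosome and is listed in the pathway, took between 52.6% and 55.0% of the members' counts with shlucif. Its share of all counts was 1.57%, 1.48% and 1.55% in the shlucif libraries, 1.08%, 1.09% and 1.01% with shArf1-1 and 1.12%, 1.09% and 1.16% with shArf1-2. The other 91 members together took 1.29%, 1.34% and 1.31% of the counts with shlucif, 1.59%, 1.58% and 1.65% with shArf1-1 and 1.60%, 1.58% and 1.58% with shArf1-2. Neither share overlapped between shlucif and Arf1-deficient libraries.

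Of the 92 members, 84 passed the filter on low counts and were tested. Members were more often higher than lower in Arf1-deficient cells, and the changes were small. Compared with shlucif, 44 of the 84 members rose, where 31.6% of all 12448 tested genes rose, and 15 fell, where 32.9% of all tested genes fell (edgeR's quasi-likelihood test, with a Benjamini-Hochberg adjusted p below 0.05 taken over the 12448 genes). The median log2 fold change was 0.22 over the tested members and 0.003 over all tested genes, and the members ranged from -0.72 to 0.98, so that none reached a 2-fold change. When libraries were scaled by their total alone, 53 members rose, beside 36.6% of all tested genes, and 9 fell, beside 29.1%, and the median over all tested genes moved to 0.07. After scaling, shlucif and Arf1-deficient libraries did not overlap in 54 members, with the Arf1-deficient ones on the high side in 40 (27.9% of all tested genes) and on the low side in 14 (30.1%). With shArf1-1 alone, 50 members rose (33.1% of all tested genes) and 16 fell (34.4%), and with shArf1-2 alone, 44 rose (30.9%) and 15 fell (32.6%). These comparisons share the 3 shlucif libraries. The median log2 fold change of the members was 0.24 with shArf1-1 and 0.17 with shArf1-2.

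**Figure D2:**
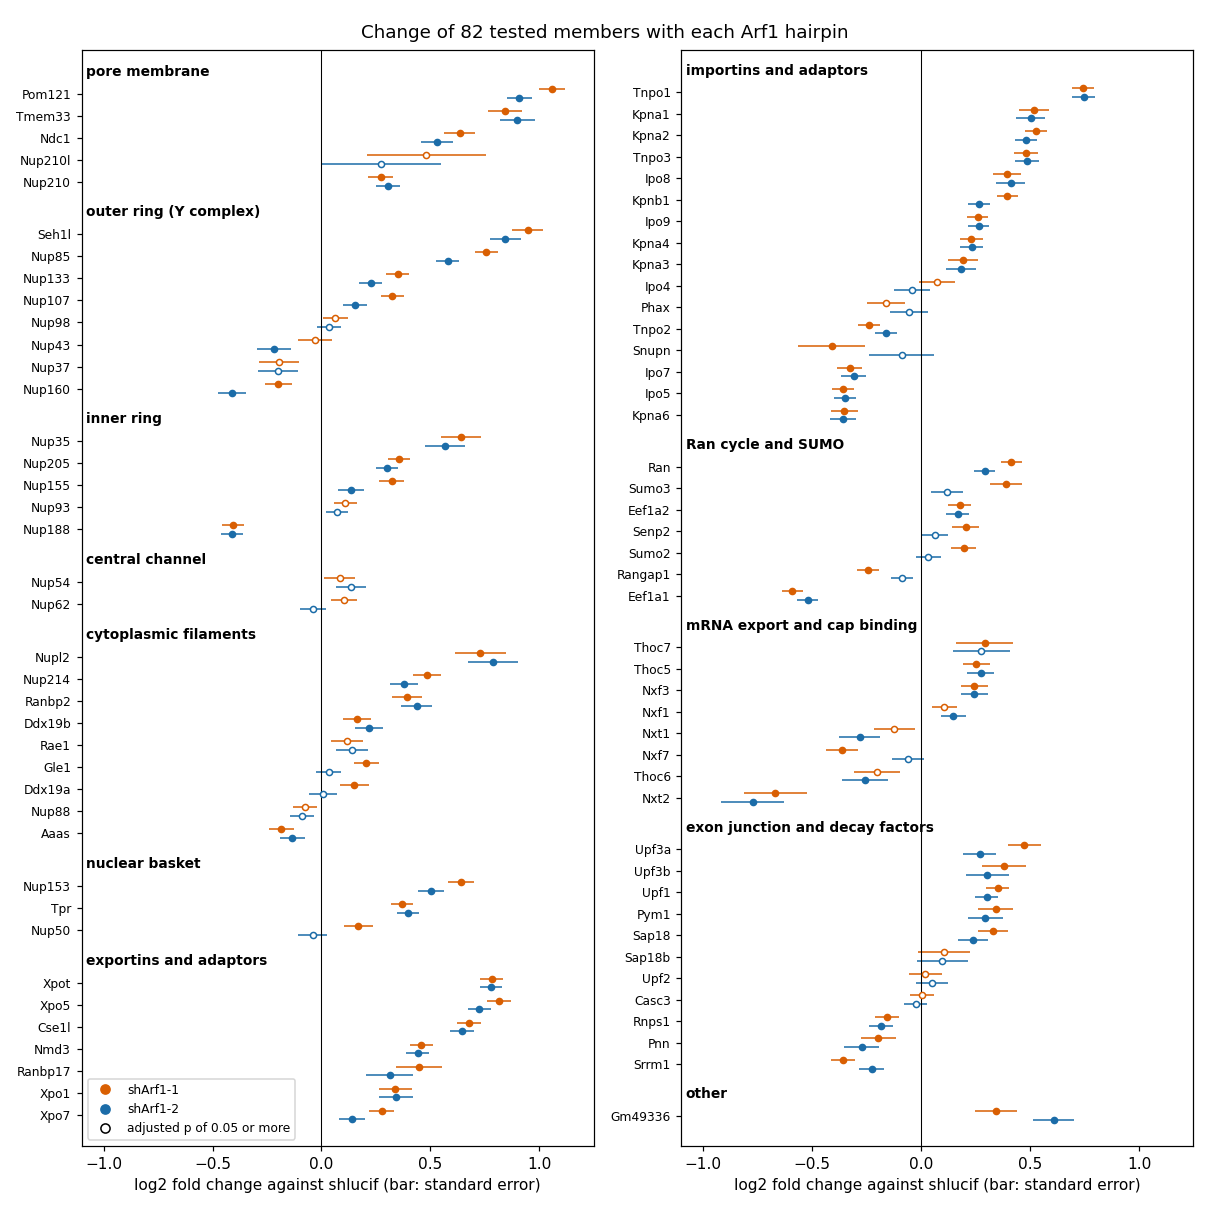
Each row is 1 of 82 tested members, grouped by role and ordered by its change in Arf1-deficient cells. Points give the log2 fold change against shlucif with shArf1-1 and with shArf1-2, bars its standard error, and filled points an adjusted p under 0.05. The exportins lie to the right of 0 with both hairpins, and the members of the rings, the importins and the mRNA export factors lie on both sides.

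The roles of the pore itself held 33 members, mostly nucleoporins, with Tmem33, Gle1, Ddx19a and Ddx19b counted among them. Of these 33, 32 were tested, with a median log2 fold change of 0.24. Of the tested ones 17 rose, where 31.6% of all tested genes rose, and 4 fell, where 32.9% fell. The pore membrane members, which span the envelope or bind its membrane, held the largest rise. Pom121, an integral membrane nucleoporin, was at 20.9, 21.2 and 18.1 FPKM with shlucif, at 42.8, 44.9 and 42.5 FPKM with shArf1-1 and at 40.2, 38.6 and 39.8 FPKM with shArf1-2. Each Arf1-deficient library lay well above every shlucif library. Its log2 fold change was 0.98 (standard error 0.07, adjusted p = 1.89e-10 by edgeR), and with shArf1-1 it was 1.06, the 1 change of a member past 2-fold with a single hairpin. Pom121 (ENSMUSG00000053293) occupies chr5:135376141-135394546 of GRCm38, minus strand, and overlaps Nsun5 on the opposite strand, which rose by 0.63 on the log2 scale. Whether counting used strand is not given in the sources used here, so reads of the pair cannot be told apart.

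Tmem33, an endoplasmic reticulum membrane protein that the annotation lists with the pore, went from 4.91, 5.74 and 5.81 FPKM with shlucif to 10.7, 8.77 and 11.1 FPKM with shArf1-1 and to 11.04, 11.2 and 9.99 FPKM with shArf1-2. Its groups did not overlap, and its log2 fold change was 0.87 (standard error 0.08, adjusted p = 1.89e-08 by edgeR). Ndc1, the transmembrane nucleoporin that anchors the scaffold, rose by 0.58 on the log2 scale, and Nup210, with the highest level of these members at 24.0 ± 1.38 FPKM (SD, n = 3) with shlucif, rose by 0.29. Nup210l, at 0.41 FPKM in shlucif, did not pass the test (log2 fold change 0.38, standard error 0.24, adjusted p = 0.177 by edgeR). Thus 4 of 5 tested pore membrane members rose (31.6% of all tested genes) and none fell (32.9%), with a median of 0.58.

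Of the 8 members of the outer ring, 4 rose (31.6% of all tested genes), 2 fell (32.9%) and 2 did not pass the test. Seh1l, a Y-complex subunit that also serves in the GATOR2 complex of amino acid sensing, had the second largest rise, from 9.15, 9.97 and 9.15 FPKM with shlucif to 19.1, 17.8 and 19.6 FPKM with shArf1-1 and to 17.9, 18.5 and 17.0 FPKM with shArf1-2. No Arf1-deficient library came near the shlucif range (log2 fold change 0.90, standard error 0.07, adjusted p = 1.52e-09 by edgeR). Nup85, which sits beside Seh1l in the short arm of the Y, was at 41.2, 41.0 and 40.3 FPKM with shlucif, at 71.8, 68.7 and 74.4 FPKM with shArf1-1 and at 63.3, 64.1 and 64.9 FPKM with shArf1-2. The 3 groups were separate, with shArf1-1 highest, and both hairpins together gave a rise (log2 fold change 0.67, standard error 0.06, adjusted p = 1.63e-08 by edgeR). Nup107 and Nup133, neighbours in the stem of the Y, rose by 0.24 and 0.29 on the log2 scale. Nup160, a subunit of the other arm, went the opposite way, from 10.7, 11.4 and 10.8 FPKM with shlucif to 10.02, 9.39 and 10.3 FPKM with shArf1-1 and to 8.79, 9.10 and 8.09 FPKM with shArf1-2. All 6 Arf1-deficient libraries were below shlucif (log2 fold change -0.30, standard error 0.07, adjusted p = 0.00105 by edgeR). Nup37, which binds Nup160, had a log2 fold change of -0.20 (adjusted p = 0.0367 by edgeR), while Nup43 at -0.12 and Nup98 at 0.05, a repeat nucleoporin counted with the ring, did not pass.

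The inner ring held related scaffold proteins that moved in opposite directions. Nup188 was at 44.7, 45.1 and 43.6 FPKM with shlucif, at 35.1, 35.6 and 33.7 FPKM with shArf1-1 and at 35.1, 34.7 and 35.5 FPKM with shArf1-2. The shlucif libraries lay above all others, and both hairpins gave nearly the same level (log2 fold change -0.41, standard error 0.05, adjusted p = 2.22e-07 by edgeR). Nup205, its structural relative in the same ring, was at 29.0, 30.0 and 30.0 FPKM with shlucif, at 38.2, 38.9 and 41.0 FPKM with shArf1-1 and at 40.04, 36.9 and 38.1 FPKM with shArf1-2. It was higher in all 6 Arf1-deficient libraries (log2 fold change 0.33, standard error 0.05, adjusted p = 9.55e-06 by edgeR). Nup35, which links the ring to the membrane, rose by 0.60 and Nup155, its partner at the membrane, by 0.23 on the log2 scale, and Nup93, the hub of the ring, had a log2 fold change of 0.09 that did not pass (adjusted p = 0.106 by edgeR). Nup188 shares its strand and locus with Gm28038, which was listed at 0 in all libraries.

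The channel members in the set, Nup62 and Nup54, did not pass the test. Nup62, at 61.8 ± 3.65 FPKM (SD, n = 3) with shlucif, had no change that passed (log2 fold change 0.03, standard error 0.07, adjusted p = 0.656 by edgeR), and its value turned to -0.0054 without shArf1-1 replicate 2. Nup62 overlaps Atf5 on the opposite strand, which rose by 1.14 on the log2 scale. Gm49336, a member in no role, shares strand and locus with the channel nucleoporin gene Nupl1, itself listed at 0. Gm49336 rose with overlap between its shlucif and Arf1-deficient libraries (log2 fold change 0.48, standard error 0.11, adjusted p = 0.000934 by edgeR). Whether its reads belong to the channel gene was not tested. Among 9 members of the cytoplasmic filaments, 4 rose (31.6% of all tested genes), 1 fell (32.9%) and 4 did not pass. Nupl2, which helps release messenger RNA at the cytoplasmic face, was low throughout, at 3.06, 2.82 and 2.96 FPKM with shlucif, at 5.41, 4.70 and 5.09 FPKM with shArf1-1 and at 4.89, 6.11 and 5.06 FPKM with shArf1-2. Its groups were still separate (log2 fold change 0.76, standard error 0.11, adjusted p = 4.55e-06 by edgeR). Nup214 rose by 0.43 and Ranbp2, the large filament protein that binds Ran, by 0.41 on the log2 scale. Aaas, the member of this class with the highest level at 49.9 ± 2.18 FPKM (SD, n = 3) in shlucif, had a log2 fold change of -0.16 (adjusted p = 0.0144 by edgeR), which did not pass when libraries were scaled by their total (-0.10, adjusted p = 0.12). In the nuclear basket, Nup153 rose by 0.57 and Tpr, the coiled-coil protein that forms the basket's filaments, by 0.38 on the log2 scale, while Nup50 had a log2 fold change of 0.07 that did not pass.

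**Figure D3:**
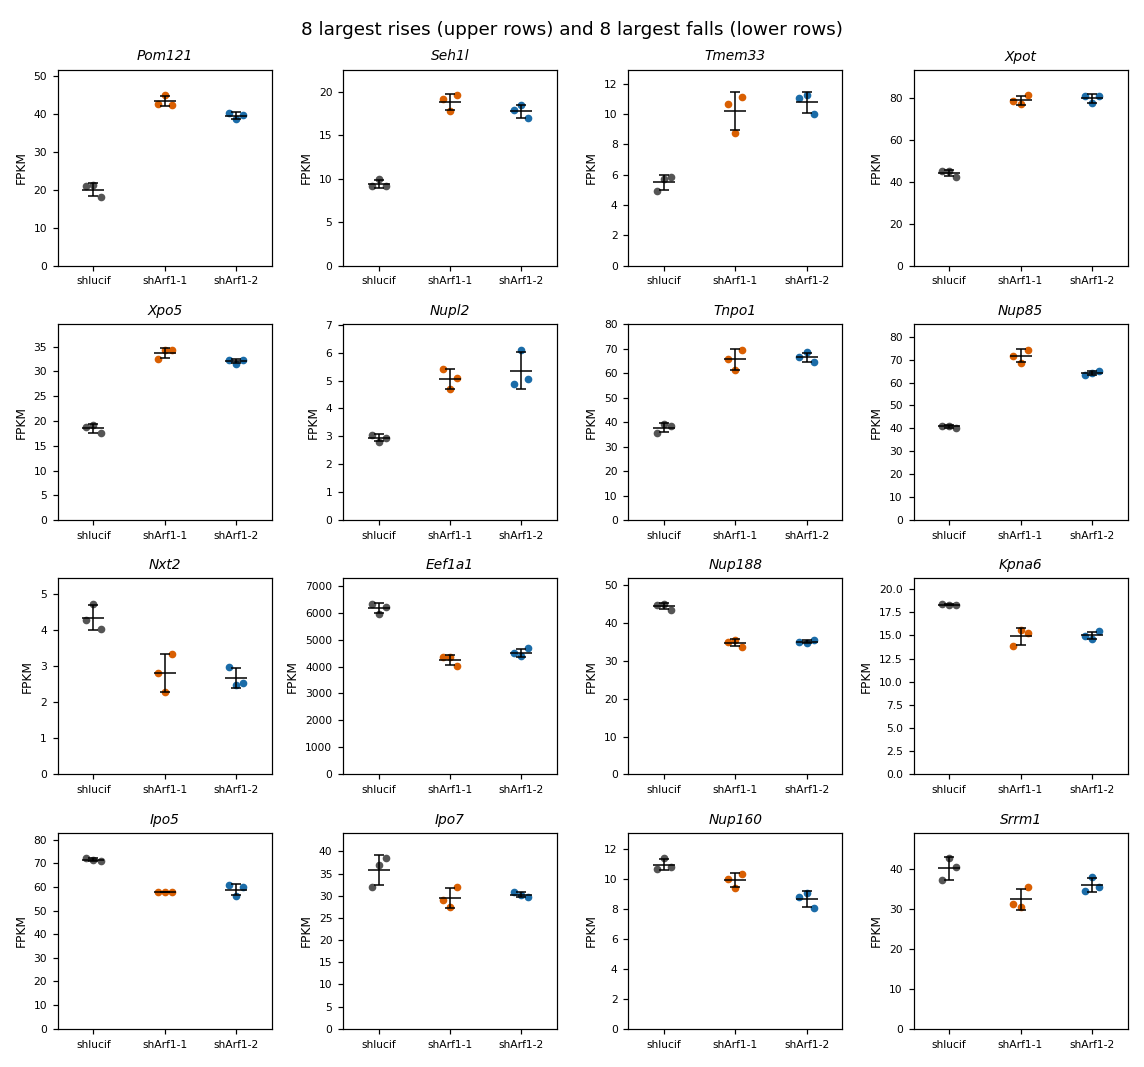
Each panel is 1 gene, with FPKM on an axis that starts at 0, points for the 3 libraries of each group, and a line and bar for their mean and SD. The upper 8 panels are the largest rises, from Pom121 to Nup85, and the lower 8 the largest falls, from Nxt2 to Srrm1, among members past the threshold whose groups did not overlap after scaling.

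All 7 exportins and export adaptors were tested and all 7 rose, where 31.6% of all tested genes rose. Their log2 fold changes ran from 0.21 to 0.78, with a median of 0.45. Xpot, the exportin of transfer RNA, was at 45.5, 45.1 and 42.6 FPKM with shlucif, at 78.8, 77.1 and 81.4 FPKM with shArf1-1 and at 81.3, 77.6 and 80.9 FPKM with shArf1-2. Both hairpins gave the same level, far from the shlucif range (log2 fold change 0.78, standard error 0.05, adjusted p = 5.93e-11 by edgeR). Xpo5, the exportin of microRNA precursors, went from 18.9, 19.1 and 17.5 FPKM with shlucif to 32.5, 34.3 and 34.4 FPKM with shArf1-1 and to 32.3, 31.6 and 32.4 FPKM with shArf1-2. Again no library of 1 group reached the other (log2 fold change 0.77, standard error 0.05, adjusted p = 4.51e-10 by edgeR). Cse1l, which returns importin alpha to the cytoplasm, rose by 0.66, Nmd3, the adaptor of the large ribosomal subunit, by 0.45, and Ranbp17, the least abundant at 2.19 FPKM in shlucif, by 0.38 on the log2 scale. Xpo1, the exportin of proteins with leucine-rich export signals, was at 38.5, 46.6 and 46.2 FPKM with shlucif, at 58.3, 50.3 and 63.6 FPKM with shArf1-1 and at 57.6, 61.0 and 56.0 FPKM with shArf1-2. Its spread was wider, and its lowest Arf1-deficient library was still above the highest of shlucif (log2 fold change 0.34, standard error 0.07, adjusted p = 0.000279 by edgeR). Xpo7 had the smallest rise, 0.21.

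The 250 bases before the start of 4 of these exportins and adaptors are shown. They were read from the RefSeq promoter table for GRCm38.p6, which held promoters for 5 of the 7, with Cse1l and Xpo7 not in it. The strands are minus for Xpot and plus for the others, at chr10:121626333-121626582 (Xpot), chr17:46202561-46202810 (Xpo5), chr11:23255791-23256040 (Xpo1) and chr3:69721805-69722054 (Nmd3). Capitals mark matches on either strand to any of 7 motifs, CCAAT (the CCAAT box), GGGCGG (the GC box), CCGGAAG (an ETS site), the NRF1 site (GCGC and TGCGC with any 1 base between), CACGTG (the E-box), TGACGTCA (the cyclic AMP response element) and TGATGCAA (the C/EBP-ATF response element).
Xpot: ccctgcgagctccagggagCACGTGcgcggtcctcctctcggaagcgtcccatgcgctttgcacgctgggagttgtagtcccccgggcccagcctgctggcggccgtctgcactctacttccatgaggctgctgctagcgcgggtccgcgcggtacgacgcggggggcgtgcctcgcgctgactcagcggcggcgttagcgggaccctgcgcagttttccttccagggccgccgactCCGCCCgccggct
Xpo5: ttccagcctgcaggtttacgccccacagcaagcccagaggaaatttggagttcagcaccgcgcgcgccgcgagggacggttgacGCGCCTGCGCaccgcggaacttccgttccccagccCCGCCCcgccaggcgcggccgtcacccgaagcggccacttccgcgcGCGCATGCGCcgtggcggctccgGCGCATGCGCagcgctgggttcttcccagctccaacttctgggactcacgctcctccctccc
Xpo1: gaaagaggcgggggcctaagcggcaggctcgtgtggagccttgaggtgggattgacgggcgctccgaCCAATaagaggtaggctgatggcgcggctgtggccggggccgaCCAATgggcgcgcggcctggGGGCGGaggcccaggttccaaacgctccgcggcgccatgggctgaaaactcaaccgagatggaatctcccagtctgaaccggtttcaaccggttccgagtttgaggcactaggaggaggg
Nmd3: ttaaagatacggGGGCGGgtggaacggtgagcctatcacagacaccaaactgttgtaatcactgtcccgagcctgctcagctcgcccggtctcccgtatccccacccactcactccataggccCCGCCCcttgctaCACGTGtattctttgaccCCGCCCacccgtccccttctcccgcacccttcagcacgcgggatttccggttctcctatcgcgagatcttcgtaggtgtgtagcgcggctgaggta
All 4 windows held a GC box, Xpot and Nmd3 also an E-box, Xpo5 an NRF1 site and Xpo1 a CCAAT box. The promoter table matched 74 of the 92 members, with 92 promoters, since some genes have several. A GC box lay in 57.6% of these, in 57.6% of the 12734 promoters of tested genes and in 32.7% of all 32851 promoters. A CCAAT box lay in 34.8%, 35.3% and 33.8%, an ETS site in 11.96%, 13.2% and 6.91%, an NRF1 site in 9.78%, 7.81% and 3.74%, an E-box in 11.96%, 8.25% and 6.02%, and a cyclic AMP response element in 4.35%, 2.64% and 1.55%, in the same order. The C/EBP-ATF response element was in none of the members' promoters, in 0.51% of those of tested genes and in 0.791% of all. The members' promoters and those of tested genes had the same median GC content, 60.0%. Any part of these motifs in the members' changes was not tested.

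Of 16 tested importins and adaptors, 9 were higher (31.6% of all tested genes), 4 lower (32.9%) and 3 not past the test. Tnpo1 (transportin 1), which imports RNA-binding proteins, was at 35.7, 39.2 and 38.6 FPKM with shlucif, at 65.9, 61.4 and 69.7 FPKM with shArf1-1 and at 66.5, 68.6 and 64.8 FPKM with shArf1-2. All 6 Arf1-deficient libraries lay above 61 FPKM (log2 fold change 0.74, standard error 0.05, adjusted p = 2.03e-10 by edgeR). Kpna2, an importin alpha and the most abundant of this role, was at 122, 118 and 122 FPKM with shlucif, at 180, 176 and 186 FPKM with shArf1-1 and at 181, 175 and 175 FPKM with shArf1-2. It rose without overlap (log2 fold change 0.50, standard error 0.05, adjusted p = 1.79e-08 by edgeR). Kpnb1, the importin beta that carries it, rose by 0.33, Kpna1 by 0.51, Tnpo3, the importer of SR splicing proteins, by 0.48 and Ipo8 by 0.40 on the log2 scale. Tnpo3 overlaps Irf5 on the opposite strand, which fell by 2.06.

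The importins that fell were Ipo5, Ipo7, Kpna6 and Tnpo2. Ipo5, an importer of ribosomal proteins and histones, was at 72.1, 71.4 and 71.0 FPKM with shlucif, at 57.9, 57.7 and 57.8 FPKM with shArf1-1 and at 60.6, 56.3 and 59.8 FPKM with shArf1-2. The gap of over 10 FPKM was larger than any spread within a group (log2 fold change -0.36, standard error 0.05, adjusted p = 1.26e-06 by edgeR). Kpna6 was at 18.4, 18.3 and 18.3 FPKM with shlucif, at 13.8, 15.6 and 15.3 FPKM with shArf1-1 and at 15.0, 14.6 and 15.4 FPKM with shArf1-2. It was lower in all 6 libraries (log2 fold change -0.36, standard error 0.05, adjusted p = 1.28e-05 by edgeR). Ipo7, an importer of ribosomal proteins, went from 31.9, 36.9 and 38.4 FPKM with shlucif to 29.1, 27.5 and 32.0 FPKM with shArf1-1 and to 30.9, 30.2 and 29.8 FPKM with shArf1-2. The lowest shlucif and the highest shArf1-1 library met in FPKM, and after TMM scaling they did not overlap (log2 fold change -0.32, standard error 0.06, adjusted p = 7.46e-05 by edgeR). Tnpo2 fell by 0.20 on the log2 scale.

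Several of the genes that fell have a close relative that rose. These pairs were chosen after their values were seen and are given without a test, as ratios of FPKM within a library, which do not depend on how libraries were scaled. Nup205 over Nup188 was between 0.649 and 0.688 with shlucif, between 1.09 and 1.22 with shArf1-1 and between 1.07 and 1.14 with shArf1-2. By FPKM, the more abundant of this pair was therefore Nup188 in shlucif and Nup205 in the Arf1-deficient libraries. Tnpo1 over Tnpo2 was between 0.668 and 0.766 with shlucif. It was between 1.26 and 1.58 with shArf1-1 and between 1.35 and 1.37 with shArf1-2, and here too the order in FPKM turned. Both orders depend on the gene lengths listed. In counts, Tnpo1 lay above Tnpo2 in every shlucif library, and Nup205 above Nup188 in shlucif replicate 3 (3799 and 3706 counts). Kpna1 over Kpna6 was between 0.434 and 0.504, between 0.752 and 0.911 and between 0.839 and 0.875, and Ipo8 over Ipo7 was between 0.106 and 0.129, between 0.188 and 0.197 and between 0.185 and 0.198, in the same order of groups. Eef1a2 over Eef1a1 was between 0.0413 and 0.0428 with shlucif, between 0.0697 and 0.0726 with shArf1-1 and between 0.0656 and 0.0704 with shArf1-2.

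**Figure D4:**
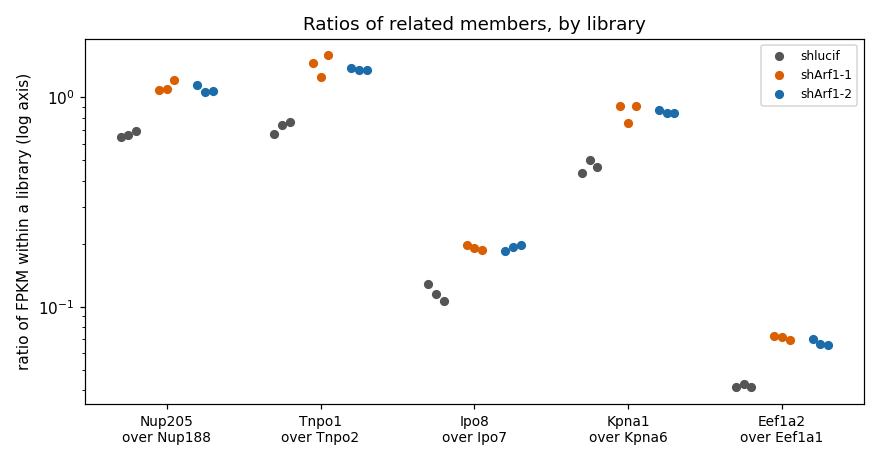
Each point is the ratio of the FPKM of related members within 1 library (log axis), coloured by hairpin. In all 5 pairs the 3 shlucif libraries lie below the 6 Arf1-deficient ones, and for Nup205 over Nup188 and Tnpo1 over Tnpo2 the ratio crosses 1.

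In the Ran cycle, Ran rose and Rangap1 fell slightly. Ran was at 298, 289 and 300.2 FPKM with shlucif, at 409, 398 and 419 FPKM with shArf1-1 and at 388, 368 and 385 FPKM with shArf1-2. All 6 Arf1-deficient libraries were above shlucif (log2 fold change 0.35, standard error 0.05, adjusted p = 6.11e-06 by edgeR). Rangap1, which makes Ran hydrolyse GTP in the cytoplasm, was at 157, 152 and 150 FPKM with shlucif, at 136, 140 and 126 FPKM with shArf1-1 and at 154, 150 and 150 FPKM with shArf1-2. Its log2 fold change was -0.16 (standard error 0.06, adjusted p = 0.0157 by edgeR) and shArf1-1 by itself gave -0.24 (adjusted p = 7.57e-05) where shArf1-2 gave only -0.09 (adjusted p = 0.13). The pooled call was lost when libraries were scaled by their total (-0.10, adjusted p = 0.125) and without shlucif replicate 1 (-0.14, adjusted p = 0.0804). Eef1a1 was at 6317, 5945 and 6218 FPKM with shlucif, at 4343, 4354 and 4032 FPKM with shArf1-1 and at 4495, 4377 and 4669 FPKM with shArf1-2. It was the most abundant member in every library and had the second largest fall (log2 fold change -0.56, standard error 0.05, adjusted p = 3.14e-09 by edgeR). Eef1a2, its neuronal and muscle counterpart, rose by 0.17. Processed copies of genes such as Eef1a1, Ran and Sumo2 lie elsewhere in the genome, and how the counting treated reads that match several places is not given in the sources used here. In the SUMO pathway, Sumo3 rose by 0.26, with overlap between its shlucif and Arf1-deficient libraries. With shArf1-1 alone Sumo3 rose by 0.39 (adjusted p = 1.98e-05 by edgeR), where shArf1-2 gave 0.12 (adjusted p = 0.153 by edgeR). Sumo2 and Senp2 did not pass in the comparison of all Arf1-deficient libraries with shlucif.

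Factors of messenger RNA export did not share a direction. Of 8 tested, 2 rose (31.6% of all tested genes), 2 fell (32.9%) and 4 did not pass, with a median log2 fold change of -0.04. Nxt2, a cofactor of the NXF export receptors, had the largest fall of any member, from 4.27, 4.73 and 4.04 FPKM with shlucif to 2.82, 2.28 and 3.33 FPKM with shArf1-1 and to 2.99, 2.48 and 2.54 FPKM with shArf1-2. No Arf1-deficient library reached the lowest of shlucif (log2 fold change -0.72, standard error 0.13, adjusted p = 6.94e-05 by edgeR). Nxf1, the main export receptor, averaged 30.5 ± 1.38 FPKM (SD, n = 3) in the control libraries and just missed the threshold (log2 fold change 0.13, standard error 0.06, adjusted p = 0.051 by edgeR). Nxf3, a relative of Nxf1 and the most abundant of this role at 80.7 ± 8.69 FPKM (SD, n = 3), rose by 0.24 and Thoc5 of the THO complex by 0.26 on the log2 scale. Thoc6 had a log2 fold change of -0.23 (adjusted p = 0.0366 by edgeR), and Hcfc1r1, which overlaps it on the opposite strand at several times its FPKM, fell by 1.09.

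Among the exon junction and decay factors, 5 of 11 rose (31.6% of all tested genes), 3 fell (32.9%) and 3 did not pass. The nonsense-mediated decay genes Upf1, Upf3a and Upf3b rose by 0.33, 0.37 and 0.34 on the log2 scale, and Upf2 had a log2 fold change of 0.03 that did not pass (adjusted p = 0.687 by edgeR). Pym1, which takes exon junction complexes apart, rose by 0.32, and Sap18 by 0.28. The genes that fell were Srrm1, Pnn and Rnps1, which act in splicing at the junction complex. Srrm1, the most abundant of this role, was at 37.2, 42.7 and 40.6 FPKM with shlucif, at 31.3, 30.5 and 35.5 FPKM with shArf1-1 and at 34.6, 38.0 and 35.5 FPKM with shArf1-2. In FPKM shArf1-2 replicate 2 lay within the shlucif range, and after TMM scaling it did not (log2 fold change -0.29, standard error 0.06, adjusted p = 0.000355 by edgeR). Pnn had a log2 fold change of -0.24 and Rnps1 of -0.17.

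The hairpins were also compared with each other, where the macrophage genes were near 0 in both groups. Arf1 was higher with shArf1-2 than with shArf1-1 (log2 difference 0.34, standard error 0.05, adjusted p = 1.16e-05 by edgeR). Few members differed. Of 84, 4 were higher with shArf1-2, where 6.98% of all tested genes were, and 7 were lower, where 7.46% were, and the median log2 difference was -0.02. Library size scaling gave 4 and 4 (7.83% and 6.05% of all tested genes), upper quartile scaling 4 and 5 (7.86% and 6.09%), and DESeq2 3 and 9 (6.36% and 6.88%). Leaving out 1 shArf1-1 or shArf1-2 library left as few as 1 member higher (without shArf1-2 replicate 1) and 1 lower (without shArf1-1 replicate 3). Over the same 6 fits, between 4.50% and 7.97% of all tested genes were higher and between 4.59% and 7.66% lower. No member past the threshold changed direction, and the log2 difference stayed between 0.11 and 0.19 for Rangap1 and between -0.37 and -0.20 for Sumo3. Without shArf1-1 replicate 1 the counts were 2 and 2, and they were also 2 and 2 without shArf1-2 replicate 2 and without shArf1-2 replicate 3, while 2 were lower without shArf1-2 replicate 1.

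Sumo3, which encodes a ubiquitin-like modifier, had the largest difference among the members that were lower with shArf1-2. It was at 24.4, 22.9 and 25.9 FPKM with shlucif, at 32.1, 32.3 and 35.2 FPKM with shArf1-1 and at 27.0, 25.2 and 31.3 FPKM with shArf1-2, a log2 difference of -0.27 (standard error 0.07, adjusted p = 0.00931 by edgeR). Nxf7, a member of the NXF family, was at 20.5, 20.9 and 20.9 FPKM with shlucif, at 16.5, 16.7 and 17.04 FPKM with shArf1-1 and at 22.7, 20.5 and 19.5 FPKM with shArf1-2. Only shArf1-1 stood apart here (log2 difference 0.30, standard error 0.07, adjusted p = 0.00464 by edgeR), and without shArf1-2 replicate 1 the call was lost (0.23, adjusted p = 0.0704).

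**Figure D5:**
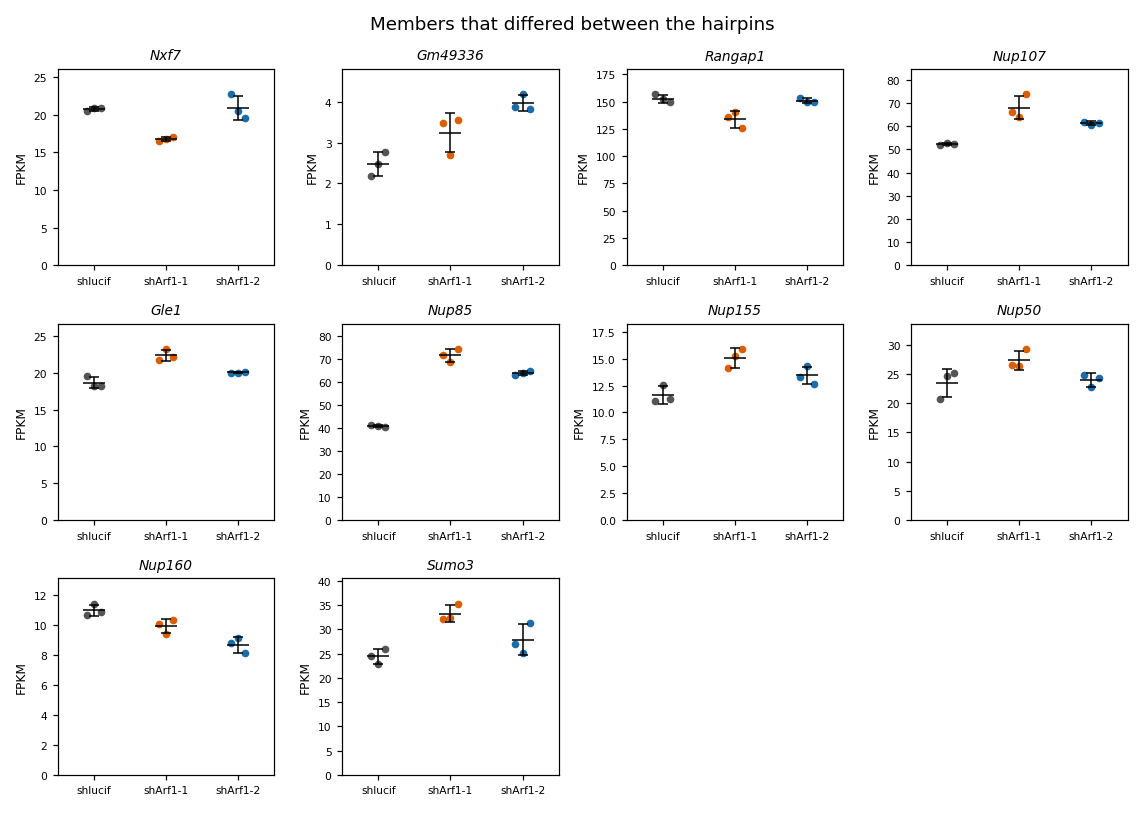
Each panel is 1 of 10 members past the threshold between the hairpins, ordered from the largest difference shown in favour of shArf1-2 (Nxf7) to the largest in favour of shArf1-1 (Sumo3). Points give the FPKM of each library on an axis that starts at 0, and the line and bar their mean and SD. The log2 differences run from 0.30 for Nxf7 to -0.27 for Sumo3, and the nucleoporins lie between these.

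The other members that were lower with shArf1-2 were 5 scaffold or basket nucleoporins and Gle1, an activator of the RNA helicase that releases messenger RNA at the filaments. The log2 difference was -0.21 for Nup160, -0.21 for Nup50, -0.18 for Nup155, -0.18 for Nup85, -0.17 for Gle1 and -0.17 for Nup107. Gm49336 and Rangap1 were higher with shArf1-2, with log2 differences of 0.27 and 0.16. Gm49336 shares strand and locus with Nupl1, a channel nucleoporin gene that is no member and was listed at 0 in all libraries. Rangap1 overlaps Zc3h7b on the opposite strand, whose log2 difference was -0.23 (adjusted p = 0.00337 by edgeR). Beside these differences, 7 of the 12 proliferation genes were lower with shArf1-2 (7.46% of all tested genes) and none higher, with a median log2 difference of -0.33. The 7 were the replication genes Mcm2 to Mcm7 and Pcna, while Ccna2, Ccnb1, Cdk1, Mki67 and Top2a did not pass. Of 12 tested neuroblastoma genes, 6 were lower and none higher. The part of the cell states behind both lists in the members' differences was not tested.

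Other genes of nuclear transport and the nuclear envelope were described from a list of 20 outside the pathway entry, of which 19 were tested. Of the tested ones, 9 rose (31.6% of all tested genes) and 5 fell (32.9%), with a median log2 fold change of 0.17. Rcc1, which loads Ran with GTP on chromatin, rose by 0.58, and Ranbp1 and Ranbp3, which bind Ran-GTP, by 0.47 and 0.33 on the log2 scale. Mad1l1, a checkpoint protein held at the basket, rose by 1.11 and Tor1aip1, an inner membrane activator of torsin, by 0.97. Lmna, which encodes A-type lamins, was at 115, 111 and 116 FPKM with shlucif and between 49.9 and 56.1 FPKM in the Arf1-deficient libraries (log2 fold change -1.14, standard error 0.05, adjusted p = 1.55e-13 by edgeR). Lmnb1 and Lmnb2, the B-type lamins, rose by 0.25 and 0.34, while Syne1 and Sun2, which link the envelope to the cytoskeleton, fell by 0.82 and 0.50 on the log2 scale. The part of the macrophage genes in these changes was not tested.

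The 8 members that were not tested were at or near 0. Nxf2, Pom121l2, Kpna7, 1700009N14Rik, AF366264, 4930444G20Rik and Gm5415 had 3 counts or fewer in every library, and Rasl2-9, a retrocopy of Ran, had at most 11 counts. Among the expressed members, the levels per gene length with shlucif ran from 0.41 FPKM for Nup210l to 6160 FPKM for Eef1a1. By named role, leaving aside the 6 members in no role, the median level was highest for the Ran cycle and SUMO genes, at 110 FPKM. That role also holds the elongation factor genes Eef1a1 and Eef1a2, at 6160 and 258 FPKM, and the ranking was not repeated without them. The lowest median was that of the pore membrane members, at 9.27 FPKM. It was 39.2 FPKM for the channel, 29.6 FPKM for the inner ring, 23.5 FPKM for the basket and 14.2 FPKM for the outer ring.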

How the data were processed

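The authors deposited 1 table that holds, per gene and library, a whole-number count of reads and an FPKM. The counts were not normalized, and each deposited FPKM equals that count over gene length and library total, with 0 values off by more than 0.0001 FPKM plus 0.1%. Per the labels, RNA was extracted with Trizol, selected with oligo(dT), cut to fragments and copied from random primers. The submitters' processing notes name mm10. The aligner, the counter and the use of strand are not given in the sources used here. The table's own coordinates differ from GRCm38, so places come from GENCODE for GRCm38 by identifier, which held all 92 members, 25 of them overlapping another gene of the table. Another 8 lines continue broken lines, name no gene and were left out. The columns named shArf2 were taken as shArf1-2.

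Counts were tested with edgeR 4.0.16 in R 4.3.3 (filterByExpr, TMM, glmQLFit with robust estimation, glmQLFTest) over all 12448 genes that passed the filter, as 6 Arf1-deficient against 3 shlucif libraries and, for each hairpin and the difference between hairpins, in a fit of 3 groups. The study's methods name no test for this table. Fold changes are on the log2 scale. The test was checked on simulated counts. Alternatives were a replicate block, DESeq2 1.42.0, upper quartile or library size scaling, no filter, at least 10 counts in every library, limma 3.58.1 on log2(FPKM + 0.1) or log2(FPKM + 1), a fit of only the libraries compared, a minimum log2 fold change of 0.5 and leaving out each library. Totals of 11182479 to 15594615 counts set the precision. Named members were the 8 largest rises and 8 largest falls past the threshold without overlap between groups, the 4 largest differences between hairpins in each direction, the most abundant member of each role, the Ran cycle and members at 3 counts or fewer in every library. Other members are named to complete a role, with their values already seen. The members, roles and lists were chosen with earlier results of these data known. Some genes of these lists are not reported here. Promoters were the 250 bases before RefSeq starts, matched by Entrez number.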

Additional observations from a re-analysis of the deposited data

Results flagged for a closer look

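Of all tested genes, 6.98% were higher and 7.46% lower with shArf1-2 than with shArf1-1, beside 4 and 7 of the 84 tested members. Differences between the hairpins themselves thus passed the test in 11 members, given as shArf1-2 minus shArf1-1 on the log2 scale (edgeR). For 10 of them they were 0.30 for Nxf7, 0.27 for Gm49336, 0.16 for Rangap1, -0.27 for Sumo3, -0.21 for Nup160, -0.21 for Nup50, -0.18 for Nup155, -0.18 for Nup85, -0.17 for Gle1 and -0.17 for Nup107. Of the 11, 10 kept the call under DESeq2, 8 under library size scaling and 4 under limma on either FPKM scale. Without 1 library, between 3 and 11 kept it.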

How the results depend on the processing

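With a minimum log2 fold change of 0.5 beside the threshold, 14 members rose and 2 fell in Arf1-deficient cells, likewise 14 and 2 with shArf1-1 and 14 and 2 with shArf1-2, and 1 was higher and 0 lower in shArf1-2 than in shArf1-1. How many of all tested genes met this minimum was not counted, so these numbers have no share beside them. Library size scaling left 9 members lower in Arf1-deficient cells, 8 with shArf1-2 and 4 between the hairpins (29.1%, 28.1% and 6.05% of all tested genes). limma on log2(FPKM + 1) gave 9, 8 and 1 (29.2%, 28.2% and 5.04% of all tested genes). On log2(FPKM + 0.1) it gave 8 with shArf1-2 (27.8%) and 1 between the hairpins (4.83%). Library size scaling also moved the split of the calls, with 51 higher and 8 lower for shArf1-2, where the share of higher calls over all tested genes went from 48.7% to 56.5%. Leaving out 1 library gave between 1 and 4 members higher and between 1 and 7 lower with shArf1-2 than with shArf1-1. Over all tested genes these shares were 4.50% to 7.97% and 4.59% to 7.86%. Between 41 and 46 members were higher in Arf1-deficient cells and between 11 and 17 lower, beside 27.8% to 31.2% and 29.7% to 33.1% of all tested genes. Of the 59 members past the threshold, between 52 and 59 kept call and direction without 1 library. For single members, 554 of the recomputed values kept direction and side of the threshold, 48 no longer passed, and 1, Nup62 without shArf1-1 replicate 2, turned to -0.0054, within a range of -0.0054 to 0.0902 over the libraries left out. The cause was not tested.

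Equal replicate numbers in the labels did not mark pairs. Same-numbered libraries had correlations of their deviations between -0.10 and 0.13, only 2 of 9 over 0.1, and 1 of 9 libraries correlated best with its own number. With the replicate block 44 members rose (30.6% of all tested genes) and 15 fell (32.1%), as many members as without it. Between the hairpins they were 4 and 7 (7.08% and 7.46%). A fit that treats the macrophage genes apart from the hairpin was not possible, since all shlucif libraries hold them. Members with few counts are less precise, and Nup210l, with a log2 fold change of 0.38 and a standard error of 0.24, did not pass (adjusted p = 0.177 by edgeR).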
